A study of Homo sapiens with 16 samples.

Results

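Corin is a small molecule built to inhibit the CoREST repressor complex, in which the histone deacetylases HDAC1 and HDAC2 and the histone demethylase LSD1 (the product of KDM1A) are held on the scaffold RCOR1. The complex is known for removing acetyl marks from histones and methyl marks from lysine 4 of histone H3, and for keeping neuronal genes silent in other cells together with the DNA-binding factor REST. Melanoma cells are often placed between a melanocytic state with high MITF and a dedifferentiated, invasive state with high AXL. The genes described here are those measured in 1205Lu-R, a melanoma line with high AXL, after 2.5 μM corin or the vehicle DMSO for 24 hours. 1205Lu-R was made resistant to the BRAF inhibitor PLX4032 (vemurafenib) by culture in rising doses of it and was then kept in 5 μM. The methods list DMSO, corin, PLX4032 and their combination as separate treatments, and name no PLX4032 for the DMSO and corin libraries. The sources do not say whether the medium still held PLX4032 during these 2 treatments. The sources used here do not describe the line as a clone. Poly(A) RNA from 2 libraries per treatment was sequenced, so that 4 of the 16 samples of the series enter the comparison. Genes were members where they passed a filter on low counts in these 4 libraries, which 14563 of the 34228 genes in the count table did. The comparison addresses which genes and programs change when CoREST is inhibited in a resistant, AXL-high line.

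Library totals ran from 9516687 to 11112999 estimated counts. The levels below are CPM (counts scaled to a fixed library total) after TMM scaling, and a gene was taken as well expressed at a mean of 50 CPM or more over the 4 libraries, which 4216 genes reached. A gene was called at an adjusted p under 0.05 in edgeR's quasi-likelihood test with a change of 2-fold or more, and the verbs rose and fell are used for an adjusted p under 0.05 alone. Replicate libraries differed by little more than counting error (chi-square per degree of freedom of 1.34 for DMSO and 1.36 for corin), so that even small shifts passed the test. The sources do not say whether the 2 libraries of a treatment came from separate cultures, and the p-values then measure only the spread between these libraries, which may be technical. Levels scaled to the library total cannot tell a change of 1 transcript from a change in total RNA per cell.

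The label was checked against marker genes. AXL, the receptor tyrosine kinase that names the state, stood at 971 and 1003 CPM in the DMSO libraries, against 8.24 and 6.48 CPM for MITF, the master regulator of melanocytes. SOX10, which specifies the melanocyte lineage, and TYR, the rate-limiting enzyme of melanin synthesis, had 0 counts in every one of the 4 libraries. The pigment genes PMEL, MLANA and DCT did not pass 16 counts in any. The defining melanocyte markers were therefore absent or near absent in this line, with or without corin. KRT5 and KRT14, keratinocyte keratins, had 0 counts, and PTPRC, which marks white blood cells, and CDH5, the cadherin of endothelium, had at most 1.

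More genes were called higher with corin than lower, but among well-expressed genes the balance was the other way. Over all genes tested, 3211 were called higher (22.0% of genes tested) and 1427 lower (9.8%). At an adjusted p under 0.05 alone, 40.4% rose and 37.8% fell. Among well-expressed genes, 255 were called higher (6.05%) and 472 lower (11.2%), and the median log2 fold change was -0.22, against 0.03 over all genes tested. The share called higher dropped from 63.9% of the 671 genes with a mean under 1 CPM to 43.5% at 1 to 5 CPM, 25.3% at 5 to 20 CPM and 6.13% at 50 to 200 CPM. The share called lower moved far less, from 9.09% in the lowest class to 10.3% at 20 to 50 CPM and 392 of 3278 genes at 50 to 200 CPM. In the highest class, 1000 CPM or more, the order turned again, with 8 of 89 genes called higher (8.99%) and 1 lower (1.12%). The direction of the large changes depended on which libraries set the level. Of well-expressed genes past a 4-fold change at an adjusted p under 0.05, 74 were higher and 48 lower, but 60 of the 74 had a DMSO mean under 50 CPM and passed the level only through the corin libraries, while 33 of the 48 had a corin mean under 50 CPM. With the level taken from the DMSO libraries alone, a choice made after seeing the data, 14 genes were higher and 67 lower past 4-fold, and with 50 CPM required in both groups 14 were higher and 15 lower. At 2-fold the genes called lower outnumbered those called higher under all 3 ways, at 618 against 111 by the DMSO level and 271 against 111 with both. Every count of well-expressed genes below uses the mean over the 4 libraries and carries this limit.

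**Figure D1:**
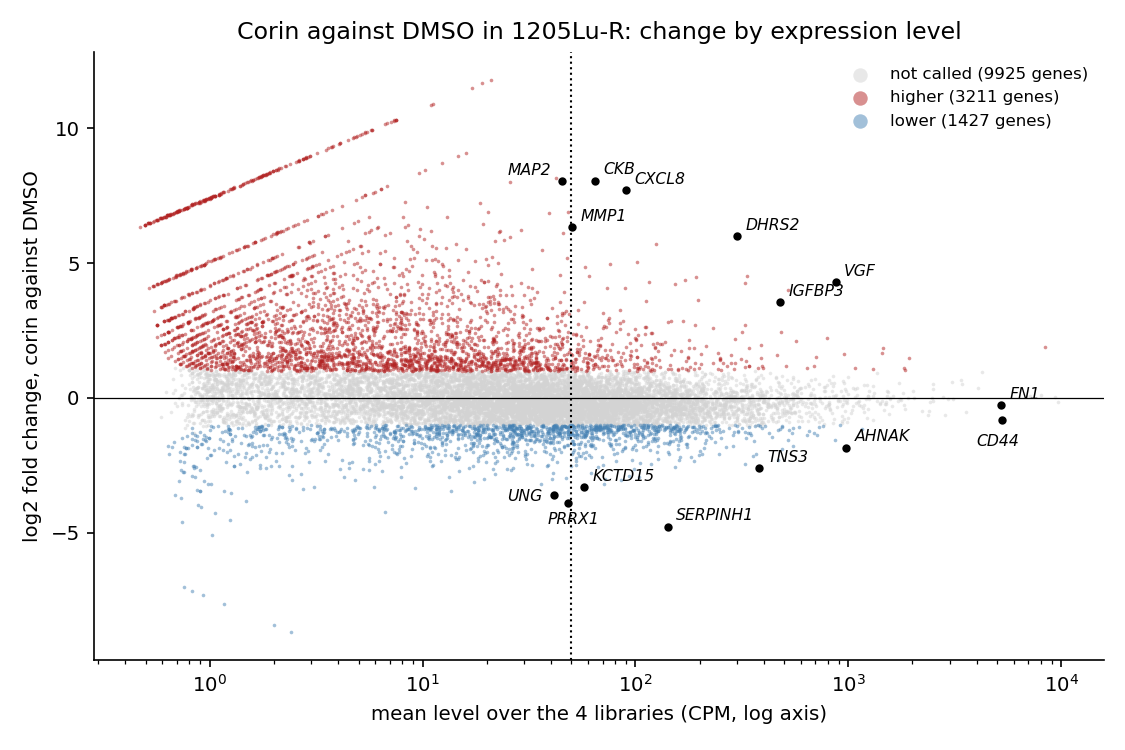
Log2 fold change of corin against DMSO (vertical axis) by mean CPM over the 4 libraries (horizontal log axis) for each of 14563 genes tested, red where called higher, blue where called lower and grey otherwise, with named genes in black and a dotted line at 50 CPM. The lines of points at upper left are genes with 0 or few DMSO counts, whose fitted changes are not bounds, and to the right of 50 CPM the points called lower outnumber those called higher.

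**Figure D2:**
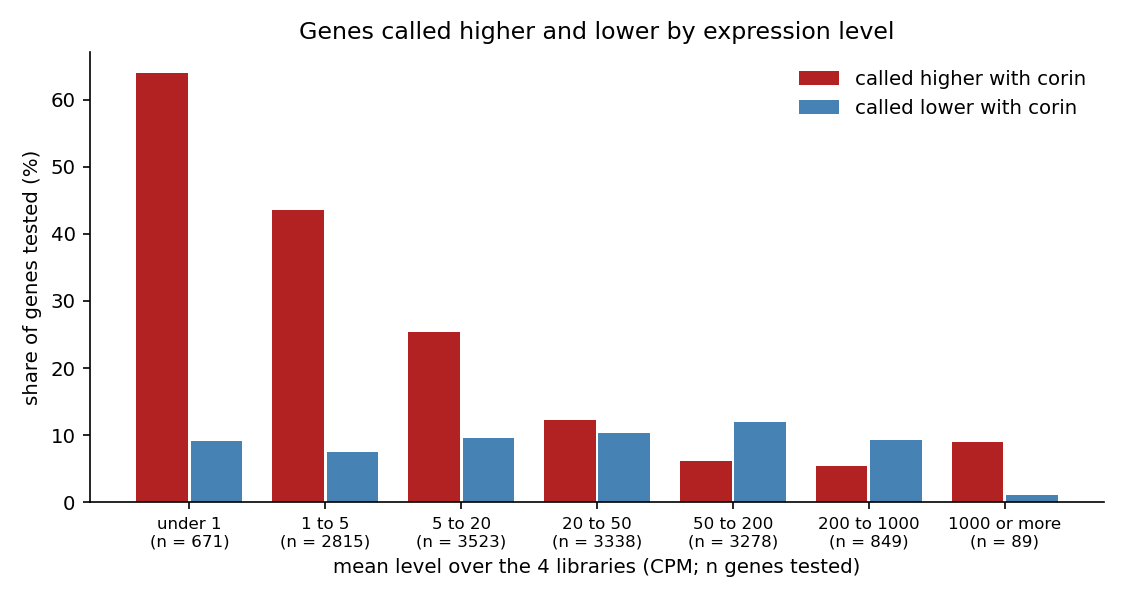
Share of genes tested (vertical axis, percent) called higher (red bars) or lower (blue bars) with corin, in 7 classes of mean CPM. The red bars shorten from 63.9% under 1 CPM to 6.13% at 50 to 200 CPM, where the blue bar is the taller.

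Transcript classes differed in the same direction. Of 12787 protein-coding genes tested, 20.7% were called higher and 9.84% lower, with a median log2 fold change of -0.01. Of 1308 long noncoding RNA genes, 34.4% were called higher and 9.79% lower, with a median of 0.52. Only 15 long noncoding RNAs were well expressed, 2 called higher and 1 lower, so that level and class cannot be told apart by this count. Across the count table, 650 genes had 3 counts or fewer in both DMSO libraries and 10 or more in both corin libraries, whereas 33 genes did the reverse.

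The 15 well-expressed protein-coding genes with the largest rises, of which 14 had a DMSO mean under 50 CPM, included secreted and cell-surface proteins of inflammation, matrix breakdown and neural tissue. CKB, the brain form of creatine kinase, read 0.556 and 0.387 CPM in the DMSO libraries and 128 and 129 CPM in the corin libraries. Its log2 fold change was 8.05 (adjusted p = 3.8e-23). CXCL8, which encodes the neutrophil chemokine interleukin 8, went from 0.648 and 1.06 CPM to 183 and 175 CPM (log2 7.70, adjusted p = 7.8e-24). MMP1, the interstitial collagenase, went from 1.76 and 0.677 CPM to 101 and 98.2 CPM (log2 6.33, adjusted p = 1.0e-20). In these 3 genes both DMSO libraries were at or under 2 CPM, on 19 counts or fewer each, which leaves the sizes of the rises uncertain.

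DHRS2, a short-chain dehydrogenase, read 8.80 and 9.96 CPM with DMSO and 583 and 602 CPM with corin, a 63.3-fold rise. CPA4, a secreted carboxypeptidase, read 4.44 and 4.83 CPM with DMSO and 252 and 240 CPM with corin, a 52.8-fold rise. NGFR, the low-affinity neurotrophin receptor and a marker of neural crest stem cells, rose 32.8-fold, from 5.74 and 6.28 CPM to 201 and 194 CPM. These DMSO levels, unlike those of CKB, rest on more than 30 counts per library. The remaining rises of this group lay between log2 4.26 and 4.96: CD24, a glycoprotein anchored in the membrane, PLS1, an actin bundler of the plastin family, TNFAIP6, which binds hyaluronan, TFPI2, an inhibitor of serine proteases in the matrix, CLU, a secreted chaperone, ARC, an immediate early gene of neurons, VGF, a neuropeptide precursor, SEMA3C, a secreted guidance cue, and SAT1, which acetylates polyamines for breakdown. VGF was the most abundant of the 15, at 1701 and 1622 CPM with corin against 85.6 and 83.5 CPM with DMSO (log2 4.30, adjusted p = 1.0e-25).

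The largest falls held a collagen chaperone, a replication helicase subunit and several chromatin and adhesion proteins. SERPINH1 encodes HSP47, the chaperone of collagen folding in the endoplasmic reticulum. It fell 27.2-fold, from 274 CPM in both DMSO libraries to 9.83 and 10.3 CPM (log2 -4.76, adjusted p = 6.3e-25). KCTD15, known as a brake on neural crest formation, fell from 104 CPM in both to 9.83 and 11.2 CPM (log2 -3.30, adjusted p = 3.0e-20). MOK, a protein kinase, fell from 128 and 129 CPM to 12.8 and 15.4 CPM.

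The other 12 falls lay between log2 -3.06 and -2.44. They were JADE2, a PHD-finger protein of histone acetylation complexes, LPXN, a LIM adaptor of focal adhesions, MCM5, ZMYND8, a reader of acetylated histones, IGF2BP1, an oncofetal RNA-binding protein, TSPAN14, a tetraspanin, TNS3, a tensin that couples integrins to actin, PHF19, a Polycomb accessory protein, SLC5A3, the myo-inositol transporter, SYDE1, a GTPase-activating protein, INTS3, an Integrator subunit, and WNT5A, a noncanonical Wnt ligand. TNS3 was the most abundant of these, at 655 and 652 CPM with DMSO and 110 and 106 CPM with corin (log2 -2.60, adjusted p = 3.2e-24). WNT5A fell from 204 and 193 CPM to 36.2 and 37.0 CPM. In all 30 genes the corin libraries lay apart from the DMSO libraries, as they did for 94.4% of all well-expressed genes.

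**Figure D3:**
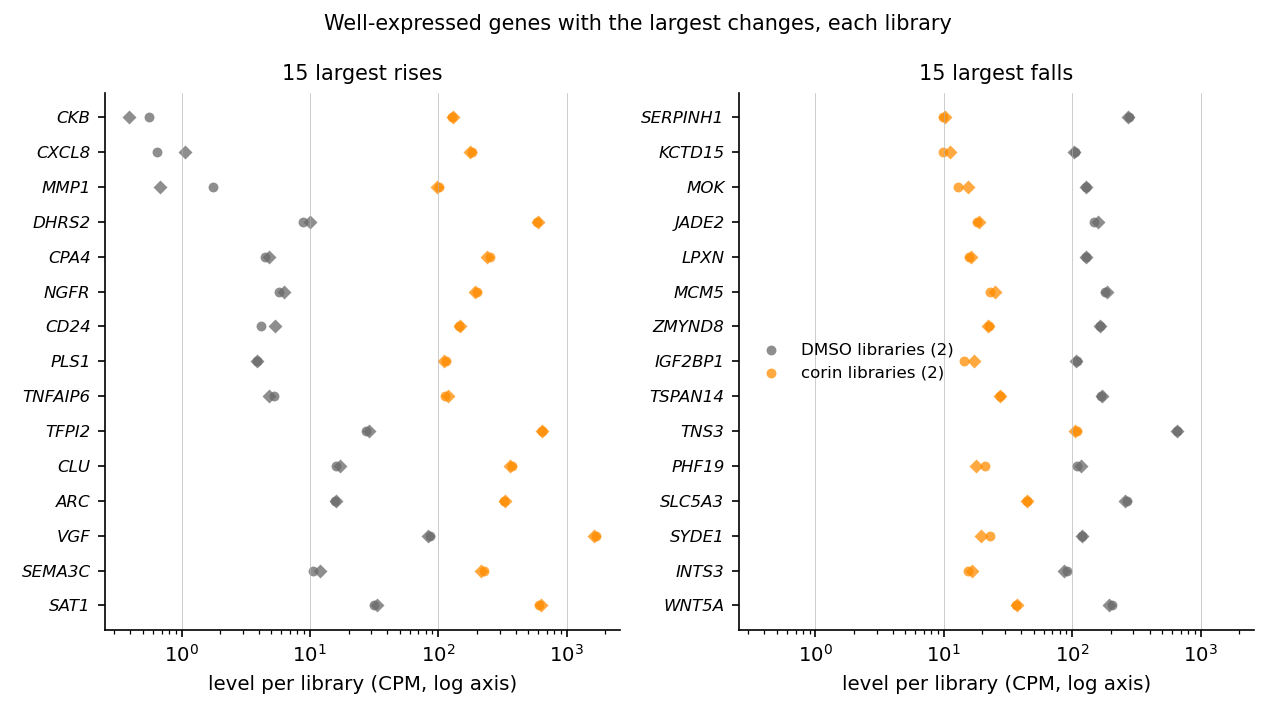
Level in CPM (horizontal log axis) of the 15 well-expressed genes with the largest rises (left) and the 15 with the largest falls (right), with the 2 DMSO libraries in grey and the 2 corin libraries in orange (circle for replicate 1, diamond for replicate 2). Replicates lie almost on each other, and rises begin at levels as low as 0.387 CPM in CKB, while the highest corin level of a fallen gene is that of TNS3 at 110 CPM.

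Promoter windows of these genes, from 250 bases before to 50 after a RefSeq start site on GRCh38.p14, are shown because genes with and without a TATA box differed in their shares of calls. These windows are those of the 3 largest rises and 2 of the 3 largest falls that had an entry. They lie at chr14:103522781-103523080 (minus strand) for CKB, chr4:73740319-73740618 (plus strand) for CXCL8, chr14:23629865-23630164 (plus strand) for DHRS2, chr11:75562003-75562302 (plus strand, the more upstream of 2 starts) for SERPINH1 and chr14:102305115-102305414 (minus strand) for MOK. Each is printed on its gene's strand, 5′ to 3′, with matches to the searched motifs in capitals.
CKB: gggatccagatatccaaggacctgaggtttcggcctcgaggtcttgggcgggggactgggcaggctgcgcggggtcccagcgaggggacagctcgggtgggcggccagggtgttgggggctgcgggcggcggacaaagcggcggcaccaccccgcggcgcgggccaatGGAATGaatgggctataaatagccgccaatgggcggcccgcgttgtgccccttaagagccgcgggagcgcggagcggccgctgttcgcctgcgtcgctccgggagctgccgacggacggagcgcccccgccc
CXCL8: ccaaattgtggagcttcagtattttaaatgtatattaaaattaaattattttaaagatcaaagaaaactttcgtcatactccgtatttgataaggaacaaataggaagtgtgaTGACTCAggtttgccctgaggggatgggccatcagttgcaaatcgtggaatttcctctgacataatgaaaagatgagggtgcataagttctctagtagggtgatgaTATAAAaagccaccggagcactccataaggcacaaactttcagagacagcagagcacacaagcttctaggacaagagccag
DHRS2: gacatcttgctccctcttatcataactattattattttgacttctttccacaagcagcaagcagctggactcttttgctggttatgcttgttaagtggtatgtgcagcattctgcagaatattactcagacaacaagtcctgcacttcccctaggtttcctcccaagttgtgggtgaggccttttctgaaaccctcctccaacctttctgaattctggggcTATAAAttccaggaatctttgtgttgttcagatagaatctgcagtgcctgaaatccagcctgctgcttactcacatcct
SERPINH1: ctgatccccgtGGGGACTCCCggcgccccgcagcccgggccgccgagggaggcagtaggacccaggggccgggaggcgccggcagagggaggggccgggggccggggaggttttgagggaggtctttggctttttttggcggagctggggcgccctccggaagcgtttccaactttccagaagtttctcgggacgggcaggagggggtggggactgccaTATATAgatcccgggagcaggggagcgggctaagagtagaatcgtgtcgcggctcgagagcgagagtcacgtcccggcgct
MOK: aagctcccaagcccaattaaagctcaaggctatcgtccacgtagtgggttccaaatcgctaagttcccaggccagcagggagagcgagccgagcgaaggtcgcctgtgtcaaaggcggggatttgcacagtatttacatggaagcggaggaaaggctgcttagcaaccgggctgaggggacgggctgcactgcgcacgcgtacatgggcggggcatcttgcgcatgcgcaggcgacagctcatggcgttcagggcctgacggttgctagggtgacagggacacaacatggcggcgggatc
The capitals mark the TEAD-type letters GGAATG in CKB, the AP-1 letters TGANTCA followed by TATAAA in CXCL8, TATAAA in DHRS2, and an NF-kappaB-type site on the other strand followed by TATATA in SERPINH1, with no match in MOK. CKB also holds TATAAA, in lower case, 69 bases before this start and thus outside the 50 bases in which a TATA box was counted. A match is a description of letters, not of a bound site.

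A TATA box, counted as TATAAA or TATATA on the gene's strand within the 50 bases before a start, stood in 3.55% of all 35116 promoter windows. This motif was added after the values had been seen, whereas the other 8 were listed with the gene lists. Of 4184 well-expressed protein-coding genes, 3433 (82.1%) had a window. Of the 139 with a TATA box, 38 were called higher (27.3%) and 7 lower (5.04%), with a median log2 fold change of 0.24. Among the 3294 without one, 150 were called higher (4.55%) and 379 lower (11.5%), with a median of -0.26. Of the 38, 20 had a DMSO mean under 50 CPM and passed the level only through the corin libraries. With 50 CPM required in both groups, 18 of 111 genes with a TATA box were called higher (16.2%) and 4 lower (3.6%), against 60 (2.22%) and 223 (8.25%) of 2704 without one. CXCL8, DHRS2, CPA4, IL11, IGFBP3, ANGPTL4 and GADD45B led the TATA genes that rose, and SERPINH1 was among those that fell. Of the 250 genes called higher 75.2% had a window, so that shares over the called genes themselves are not given.

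The listed motifs separated the directions less. Of 255 well-expressed genes with an AP-1 site (TGANTCA, either strand, 7.71% of all windows), 7.45% were called higher and 13.7% lower. Of 491 with an E2F site (TTTNNCGC, 6.89% of all windows), 4.68% were called higher and 15.3% lower. Of 519 with a TEAD site (GGAATG, in 4928 of the 35116 windows), the shares were 6.17% and 13.9%, and of 708 with the E-box CACCTG bound by SNAI and ZEB factors (20.6% of all windows) 51 were called higher and 78 lower. CREs (TGACGTCA, 1.85% of windows) gave 5.56% and 8.33%, CHR elements (TTTGAA, 15.2%) 4.68% and 13.2%, NF-kappaB sites (5.91%) 5.75% and 13.4%, and CArG boxes (1.29%) 10.8% and 13.5% over 74 genes. All are read against 5.48% called higher and 11.2% lower of the 3433 genes with a window. Well-expressed protein-coding genes called higher had a median of 9 exonic blocks, against 12 for those called lower and 13 for the rest, at median levels of 101, 99.4 and 102 CPM.

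Large shifts in transcript mass included genes of matrix and cell surface. THBS1, the matrix glycoprotein thrombospondin 1, went from 2876 and 2938 CPM to 5568 and 5631 CPM, a rise short of 2-fold (log2 0.95). NPTX2, a neuronal pentraxin, rose 2.79-fold to 2825 and 2820 CPM, and SQSTM1, the autophagy receptor p62, rose 3.56-fold to 2289 and 2277 CPM. VGF was also among the 5 largest gains.

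CD44, the hyaluronan receptor, lost most CPM, from 6729 and 6754 to 3831 and 3865 (log2 -0.81, adjusted p = 3.4e-33). PLEC and AHNAK, large scaffold proteins of the cytoskeleton, fell 1.43-fold and 3.57-fold, and YWHAZ, a 14-3-3 adaptor, fell 1.56-fold. FN1, fibronectin, fell 1.21-fold, from 5628 and 5785 CPM to 4685 and 4732 CPM. Of these 5 only AHNAK passed 2-fold.

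The counts of calls in the gene lists below stand beside 22.0% higher and 9.8% lower of all genes tested, and beside 43.5% higher at 1 to 5 CPM for lists of scarce genes. Genes of the AXL-high invasive state moved in both directions. Of 39 members tested, 9 were called higher and 8 lower, with a median log2 fold change of -0.15, and of the 33 well expressed 7 were called higher and 6 lower. Here and below, list members named beside those of the fixed rule were chosen after their values had been seen. AXL fell from 971 and 1003 CPM to 468 and 460 CPM. CAV1, caveolin 1, fell from 1034 and 1012 CPM to 402 and 399 CPM (log2 -1.35), and NRP1, a coreceptor for semaphorins and VEGF, from 851 and 857 CPM to 253 and 246 CPM (log2 -1.78). FOSL1, the AP-1 subunit FRA1, fell 3.30-fold. Against these, CCN2, NGFR, CXCL8, PODXL and INHBA rose, CCN2 (connective tissue growth factor) from 85.0 and 89.4 CPM to 582 and 557 CPM. EGFR barely moved, at 100.5 and 97.0 CPM with DMSO and 89.9 and 92.8 CPM with corin (log2 -0.11, adjusted p = 0.026).

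The melanocyte list could be read in few genes. Of its 30 members 13 passed the filter, 6 called higher and 2 lower, and 3 were well expressed. MITF rose 2.08-fold at a low level, from 8.24 and 6.48 CPM to 16.1 and 14.7 CPM (log2 1.05, adjusted p = 7.1e-07). BCL2A1, an MITF target that blocks apoptosis, rose 4.35-fold, to 27.5 and 27.3 CPM. CDK2 and RAB27A, which moves melanosomes, fell 2.34-fold and 2.06-fold. The other members called higher, GPNMB, ERBB3, EDNRB and PMEL, had means of 3 CPM or less.

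Transcription factors of the epithelial to mesenchymal transition split. Of 17 members tested, 8 were called higher and 1 lower. The median of 0.37 was not stable, at 0.13 without corin replicate 1, 0.03 without corin replicate 2, 0.06 with a minimum mean of 1 CPM and 1.01 with 8 libraries in one fit. PRRX1, a mesenchymal homeobox factor, fell 14.9-fold, from 88.2 and 93.4 CPM to 6.25 and 5.97 CPM (log2 -3.89, adjusted p = 3.5e-20). SNAI1, a repressor of epithelial genes, rose from 28.9 and 32.5 CPM to 192 and 190 CPM, and SNAI2 rose from 48.5 and 46.5 CPM to 109 and 115 CPM. KLF4 rose 2.04-fold. CDH2, N-cadherin, rose from 104 CPM in both libraries to 211 and 213 CPM. CDH1, E-cadherin, had 0 counts with DMSO and 1 and 3 with corin. ZEB1 stood at 59.9 and 61.3 CPM with DMSO and 60.2 and 57.6 CPM with corin (log2 -0.04, adjusted p = 0.49, with its sign turned under library-size scaling), and ZEB2 rose by 0.37 on the log2 scale at a level under 17 CPM.

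In the list of matrix crosslinking and proteolysis, 16 of 39 members were called higher and 3 lower (median 0.57). Besides MMP1, TIMP1, an inhibitor of metalloproteases, rose from 686 and 676 CPM to 2151 and 2216 CPM. SERPINB2, a serine protease inhibitor, had 0 counts in both DMSO libraries and read 23.5 and 21.2 CPM with corin, at least 78.6-fold higher against a floor of 3 counts per library. MMP15, a membrane metalloprotease, rose 10.2-fold to 53.1 and 53.5 CPM, while MMP14, the major membrane collagenase, fell from 755 and 779 CPM to 210 and 206 CPM (log2 -1.88). SERPINH1 and LOXL3, a lysyl oxidase, were the other members called lower.

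Collagens and matrix proteins had 13 of 43 members called higher and 2 lower (median 0.15), but of the 28 well expressed 3 were called higher and 1 lower. NID2, a basement membrane nidogen, rose 10.6-fold at a mean near 20 CPM, and LAMA1, a laminin chain, rose 2.58-fold to 17.5 and 16.6 CPM. VCAN, the proteoglycan versican, fell from 239 and 237 CPM to 84.9 and 85.2 CPM. The list held CCN2 and CCN1 among its well-expressed rises.

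Adhesion, actin and YAP genes had well-expressed medians of -0.19, -0.18 and -0.21, near the -0.22 of all well-expressed genes. Of 48 integrin and focal adhesion genes 8 were called higher and 4 lower (median -0.11), the 4 being TNS3, CAV1, PXN (paxillin) and ILK. TNS1 and FLNC (filamin C) rose 15.2-fold and 8.49-fold, and TES, a LIM protein of focal adhesions, rose 2.60-fold. Of 40 actin genes 5 were called higher and 3 lower (median -0.08). The 3 lower were tropomyosins: TPM3 went from 1033 and 1006 CPM to 499 and 497 CPM, TPM4 from 724 and 740 CPM to 323 and 324 CPM, and TPM1 from 482 and 494 CPM to 175 and 176 CPM. MRTFA, the actin-regulated coactivator, rose 2.03-fold.

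Of 32 TEAD and YAP targets 7 were called higher and 6 lower (median -0.14). IGFBP3, which binds insulin-like growth factors, rose from 73.2 and 75.9 CPM to 886 and 871 CPM (log2 3.56, adjusted p = 5.2e-26). YAP1 itself fell from 180 and 179 CPM to 62.2 and 57.3 CPM, and TEAD2 fell 4.51-fold.

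Neuronal genes held the highest median of the 31 program lists. Of 39 genes known to be bound by REST, 27 were called higher and 1 lower, with a median log2 fold change of 2.35 (1.45 without corin replicate 2, and 1.19, no longer the highest, with a minimum mean of 1 CPM), and the 1 lower was SYPL1. The share called higher, 69.2%, stands beside 22.0% of all genes tested. Most members were scarce, and by level 7 of 11 at 1 to 5 CPM were called higher, beside 43.5% of all genes in that class, and 7 of 8 at 5 to 20 CPM, beside 25.3%. Only 6 of the 39 were well expressed. Of these 6, 2 were called higher (VGF and TUBB3) and 1 lower. NRXN2, a presynaptic neurexin, had 0 and 1 counts with DMSO and read 29.8 and 29.1 CPM with corin, a ratio of counts of 621 with a 95% exact interval from 111 to 24587. RAB3A and SYT7, proteins of synaptic vesicle release, rose 16.9-fold and 14.5-fold. REST fell 1.68-fold, from 56.0 and 55.9 CPM to 33.4 and 33.1 CPM.

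Intermediate filaments and tubulins had 14 of 32 members called higher and 2 lower (median 0.52, and 0.87 without DMSO replicate 2). MAP2, which stabilises dendritic microtubules, rose from 0.463 and 0.193 CPM to 91.5 and 88.0 CPM (log2 8.03, adjusted p = 3.0e-21). Its DMSO levels rest on 5 and 2 counts, so the size of this rise is uncertain. MAPT, the microtubule protein tau, rose by log2 3.81, to 42.4 and 43.8 CPM, and the neuronal tubulins TUBB4A and TUBB2B rose 23.5-fold and 7.38-fold. NEFL, the light neurofilament, rose from 39.8 and 41.9 CPM to 290 and 300 CPM. NES, nestin, an intermediate filament of neural progenitors, fell from 1269 and 1321 CPM to 434 and 437 CPM, and LMNB1, a nuclear lamin, was the other member called lower.

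None of the 4 core genes of the targeted complex was called. RCOR1 rose 1.96-fold, from 30.4 and 35.3 CPM to 66.7 and 62.4 CPM. KDM1A rose 1.38-fold and HDAC2 1.27-fold, and HDAC1 read 145 and 134 CPM with DMSO and 125 and 136 CPM with corin (adjusted p = 0.057). Over 40 genes of CoREST, REST and the histone deacetylases, 6 were called higher and 6 lower (median -0.07). HDAC5 rose 6.85-fold and KDM1B, the relative of LSD1, 3.21-fold, while MTA2 of the NuRD complex fell 2.94-fold and HDAC7 fell 4.51-fold. Of the 16 well-expressed members none was called higher and 5 were called lower, which were CHD3, MBD3, RBBP4, HMG20B and MTA2. Histone genes had 10 of 22 members called higher and 0 lower, all with means under 12 CPM, H2BC5 rising 8.48-fold. Replication-dependent histone messages lack poly(A) tails, so that a poly(A) library reads only part of them.

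Replication genes fell broadly. In the G1 and S phase list 29 of 53 members were called lower and 1 higher, with a median of -1.10, and 47 fell at an adjusted p under 0.05. The 6 subunits of the MCM helicase, which unwinds DNA at forks, all fell by 2-fold or more: MCM5 from 180 and 187 CPM to 22.9 and 25.0 CPM, MCM7 from 573 and 595 CPM to 132 and 133 CPM, and MCM4, the least changed, from 372 and 376 CPM to 173 and 175 CPM. UNG, which removes uracil from DNA, fell from 75.6 and 76.8 CPM to 5.73 and 6.85 CPM, CCNE2, a cyclin of S phase entry, fell 6.19-fold, and GINS2 of the replicative helicase 5.64-fold. The kinase CDK4 fell from 179 and 176 CPM to 61.5 and 66.4 CPM. Its close relative CDK6 fell by 1.90 on the log2 scale, to 65.9 and 67.9 CPM. The single gene called higher was CCND2, a D-type cyclin, with 0 counts in both DMSO libraries and 10.3 and 9.13 CPM with corin.

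Mitotic and repair genes had medians below that of all genes, but their well-expressed members were called lower at shares near that of all well-expressed genes. Of 35 well-expressed genes of mitosis 5 were called lower (median -0.38), beside 11.2% of all well-expressed genes (median -0.22). In the G2 and mitosis list 7 of 43 members were called lower and 0 higher (median -0.45), with CDC25A, a phosphatase that activates CDKs, down 7.04-fold, PKMYT1 3.41-fold, FOXM1, a mitotic transcription factor, from 653 and 654 CPM to 285 and 283 CPM, and WEE1 2.11-fold. Of 54 DNA repair genes 11 were called lower and 0 higher (median -0.44). Of the 14 well-expressed repair genes 1 was called lower (median -0.57). BRCA1, which acts in homologous recombination, fell 4.47-fold.

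CDKN1A and several stress genes rose. Of 31 CDK inhibitors and stress-response genes 11 were called higher and 4 lower (median 0.35), and of the 13 well expressed 7 were called higher and 2 lower. CDKN1A, which encodes the CDK inhibitor p21, rose from 106 and 108 CPM to 476 and 487 CPM (log2 2.18, adjusted p = 1.1e-22). GADD45B, a stress gene, rose from 14.3 CPM in both to 127 and 125 CPM, and GDF15, a stress cytokine, rose 6.40-fold. In the BCL2 family 8 of 26 were called higher and 4 lower (median 0.07): BCL2L11, the killer BIM, rose from 9.63 and 8.70 CPM to 82.8 and 79.9 CPM, BAD fell 3.28-fold and BCL2L2, a survival protein, 3.01-fold.

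Many immediate early genes rose, whereas the AP-1 subunit gene FOSL1 fell. Of 32 AP-1, EGR and immediate early genes 23 rose and 6 fell, and 15 were called higher and 1 lower (median 0.95), the 1 being FOSL1, from 246 and 238 CPM to 71.9 and 74.6 CPM. EGR1, a zinc-finger factor, rose from 99.1 and 98.9 CPM to 532 and 538 CPM, JUNB from 28.6 and 34.5 CPM to 198 and 189 CPM, and FOS from 6.57 and 7.25 CPM to 82.6 and 81.0 CPM. ZFP36, which destabilises messages of cytokines, rose 17.4-fold, and NR4A1, an orphan nuclear receptor, by log2 3.17.

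Among 33 genes of ERK output and feedback 8 were called higher and 2 lower, at a median of 0.01 that turned negative with no filter on low counts or with 8 libraries in one fit. Phosphatases that switch off MAP kinases made up 7 of the 8. DUSP1 rose from 18.8 and 14.9 CPM to 129 and 137 CPM, DUSP6 from 203 and 206 CPM to 586 and 556 CPM, and DUSP5 from 45.3 and 48.1 CPM to 141 and 140 CPM. DUSP8 and DUSP10 rose 3.99-fold and 3.30-fold at levels under 19 CPM. DUSP2 and DUSP9 rose from DMSO levels near 0, and PHLDA2 was the eighth, whereas FOSL1 and RASSF1 were called lower.

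Receptor tyrosine kinases and their ligands had more calls at low levels, as all genes did. Of 49 tested 26 were called higher and 6 lower (median 1.23), but of the 19 well expressed 4 were called higher and 6 lower (median -0.60), beside 6.05% and 11.2% of all well-expressed genes. At 5 to 20 CPM 7 of 11 members were called higher, beside 25.3% of all genes in that class. The 6 called lower were AXL, NRP1, VEGFA, PDGFRA, DDR2 and PDGFA, with DDR2, a collagen receptor, going from 152 and 166 CPM to 38.6 and 43.6 CPM. MET, the HGF receptor, rose from 91.1 and 94.6 CPM to 259 CPM in both corin libraries. KDR, a VEGF receptor, KITLG, the ligand of KIT, FGFR4 and HBEGF, an EGFR ligand, rose 33.9-fold, 13.1-fold, 10.3-fold and 7.93-fold, from DMSO levels under 7 CPM.

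TGF-beta and BMP genes had 21 of 52 called higher and 2 lower (median 0.59). ID1, an inhibitor of differentiation that BMP signals induce, rose from 38.4 and 32.1 CPM to 259 and 256 CPM, ID2 rose 6.47-fold, and FSTL3, which binds activin, 6.61-fold. ENG, the coreceptor endoglin, and FST, follistatin, were the 2 called lower.

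In the list of NF-kappaB and inflammatory mediators 16 of 36 were called higher and 3 lower (median 0.71). IL11, a cytokine of the interleukin 6 family, rose from 63.4 and 60.9 CPM to 988 and 980 CPM (log2 3.98, adjusted p = 1.3e-26). ICAM1, an adhesion molecule for leukocytes, rose from 50.6 and 50.9 CPM to 332 and 328 CPM. LIF, of the same cytokine family as IL11, fell from 297 and 299 CPM to 64.0 and 66.1 CPM, and NFKB1 and IL6 were the other members called lower.

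Interferon response and antigen presentation genes were mixed, with 15 of 52 called higher and 8 lower (median 0.26). GBP2, an interferon-induced GTPase, rose 16.2-fold to 28.0 and 27.5 CPM, MICB, a ligand of NKG2D, rose to 46.6 and 47.6 CPM, IRF7 rose 4.12-fold, and CD274, which encodes PD-L1, from 12.4 and 12.6 CPM to 43.9 and 48.0 CPM.

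Glucose transporters and enzymes were called in both directions. Of 30 glycolysis genes 4 were called higher and 2 lower (median -0.01, turning positive under library-size scaling and with a minimum mean of 1 CPM). SLC2A1, the glucose transporter GLUT1, fell from 329 and 339 CPM to 79.7 and 77.0 CPM, while SLC2A3, the transporter GLUT3, rose from 36.6 and 37.5 CPM to 166 and 162 CPM. HK2, a hexokinase, fell 4.35-fold and ENO2, the neuronal enolase, rose from 36.3 and 35.0 CPM to 252 and 247 CPM. The polyamine enzymes ODC1, which makes putrescine, and SAT1 both rose, ODC1 from 213 and 212 CPM to 927 and 925 CPM.

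Cholesterol and fatty acid genes had 13 of 45 called higher and 2 lower (median 0.35). DHCR7, the last enzyme of cholesterol synthesis, rose from 40.3 and 45.8 CPM to 164 and 172 CPM. MYLIP, which degrades the LDL receptor, rose 4.42-fold, SCD5, a desaturase, 4.36-fold and STARD4, a sterol carrier, 4.08-fold. Oxidative phosphorylation genes encoded in the nucleus had 1 of 50 called higher and 2 lower (median -0.14). The 2 were NDUFS3 and NDUFA9 of complex I, down 3.22-fold and 2.10-fold, and the 1 was the coactivator PPARGC1A, at a mean under 3 CPM.

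Antioxidant genes were the only list beside the histones with 10 or more calls higher and 0 lower. Of 30 NRF2 targets and metallothioneins 13 were called higher, 26 rose at an adjusted p under 0.05 and 3 fell (median 0.93). TXNRD1, thioredoxin reductase, went from 470 and 467 CPM to 1431 and 1458 CPM, SRXN1, sulfiredoxin, from 143 and 152 CPM to 532 and 540 CPM, and NQO1 from 321 and 306 CPM to 713 and 697 CPM. MT1X, a metallothionein, rose 5.82-fold, HMOX1, heme oxygenase, 4.64-fold and OSGIN1 3.68-fold.

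Of 49 protein-folding stress genes tested 13 were called higher (26.5%, beside 22.0%) and 5 lower (10.2%, beside 9.8%), near the shares of all genes. The 37 well expressed were called higher more often, 9 higher and 4 lower, beside 6.05% and 11.2% of all well-expressed genes. HSPA5, the main chaperone of the endoplasmic reticulum, rose from 1124 and 1178 CPM to 2523 and 2506 CPM, and HSP90AA1 from 1207 and 1212 CPM to 2462 and 2461 CPM. HSPA2, HERPUD1 and DDIT4 rose 3.99-fold, 3.97-fold and 3.41-fold. HSPB1, the small heat shock protein HSP27, fell from 746 and 751 CPM to 341 and 350 CPM, and ATF5 fell 4.56-fold. Of 57 lysosome and autophagy genes 8 were called higher and 4 lower (median 0.13). SQSTM1 and MAP1LC3A rose, the latter 2.84-fold, whereas WIPI1 and MCOLN1 fell 2.87-fold and 2.34-fold.

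Ribosomal proteins changed little. None of 78 ribosomal protein genes was called, with changes between log2 -0.58 and 0.56 and a median of 0.00, although 32 rose and 31 fell at an adjusted p under 0.05. RPS2, the most abundant, read 2065 and 2028 CPM with DMSO and 2037 and 2015 CPM with corin, and RPL8 fell by 0.09 on the log2 scale. Of 51 genes of the MYC network and ribosome biogenesis 4 were called higher and 9 lower (median -0.37). UBTF, which activates ribosomal RNA genes, fell 4.43-fold and WDR74 3.84-fold, whereas MXI1, a MYC antagonist, rose 3.14-fold and ODC1 4.35-fold.

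**Figure D4:**
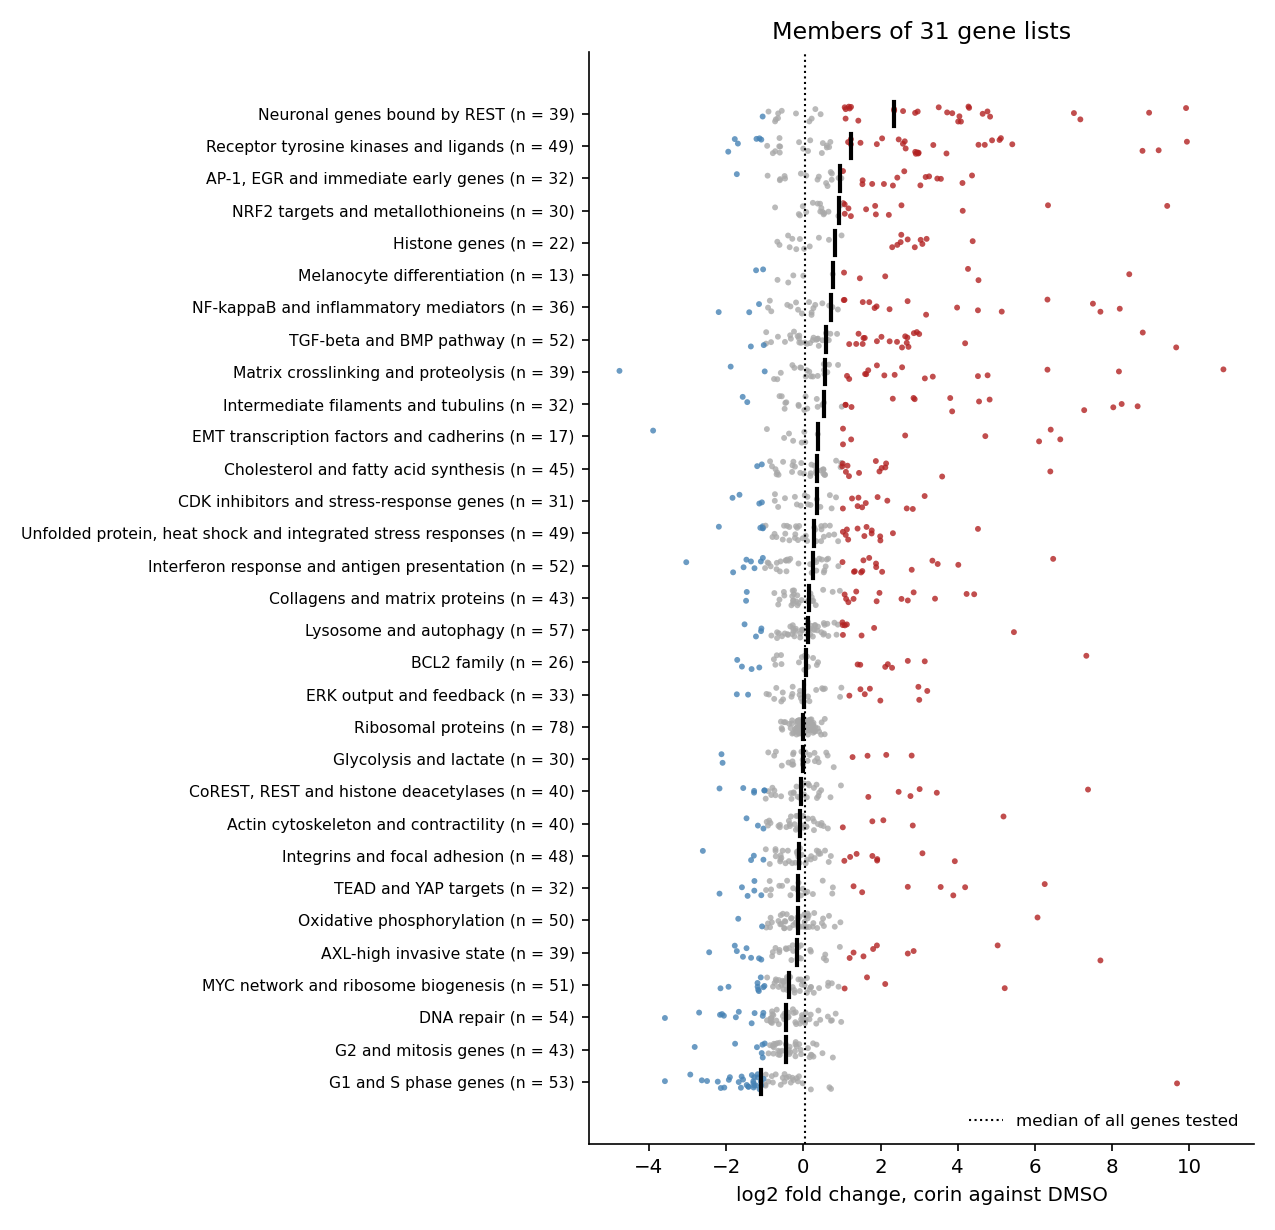
Log2 fold change of corin against DMSO (horizontal axis) for every tested member (points) of 31 gene lists, ordered by the list's median (black bar), with red points called higher, blue points called lower and grey points not called. The dotted line is the median of all genes tested, 0.03, and the lists run from G1 and S phase genes at -1.10 to neuronal genes bound by REST at 2.35.

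RNAs encoded by the mitochondrial genome rose together, a set chosen after its values had been seen. All 15 that were tested rose, by log2 0.64 to 1.11, and 2 of them passed 2-fold. Their sum went from 3864 and 3873 CPM with DMSO to 6867 and 6894 CPM with corin. MT-RNR2, the large ribosomal RNA, read 672 and 681 CPM with DMSO and 1459 and 1464 CPM with corin, and MT-CO1, a subunit of cytochrome c oxidase, 745 and 734 CPM against 1245 and 1257 CPM. Since most of these RNAs come from 1 long transcript, they are not independent of each other, and the part of RNA quality in their shared shift was not tested.

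Of genes at the floor in both DMSO libraries, the 3 with most corin counts were CYP1A1, ENSG00000259033 and RFPL4A. CYP1A1, the detoxifying enzyme that aryl hydrocarbon receptor ligands induce, read 0.278 and 0.0967 CPM with DMSO and 52.3 and 50.3 CPM with corin, a ratio of counts of 271 with a 95% exact interval from 105 to 996. ENSG00000259033 and RFPL4A had 0 counts with DMSO and were at least 148-fold and 135-fold higher with corin.

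Genes used as markers of other cell types also appeared. Of 5 endothelial markers tested 4 were called higher, KDR, VWF, ERG and TIE1, the summed level of the list going from 11.7 and 12.3 CPM to 56.7 and 49.8 CPM. VWF, which carries clotting factor VIII, read 1.67 and 1.06 CPM with DMSO and 18.5 and 17.4 CPM with corin. PECAM1 fell, from 9.26 and 10.1 CPM to 8.40 and 5.88 CPM, and the defining cadherin CDH5 had no more than 1 count in any library. The single immune member tested was CD68, at 10.1 to 13.8 CPM, which shares 81.6% of its exonic bases with another gene, and the single keratinocyte member tested was KRT10, at 33.2 and 33.4 CPM with DMSO and 29.8 and 30.6 CPM with corin (adjusted p = 0.10).

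The same contrast in 451Lu-R, a resistant line with high MITF and low AXL from the same series, gave a test of whether single responses differ. By the interaction term over 8 libraries, 49.7% of 16062 genes differed at an adjusted p under 0.05. Of 43 genes compared by name, namely the 30 largest changes with the state and target genes, 27 passed. SERPINH1 had a log2 fold change of -4.76 here and -4.78 there (adjusted p of the difference = 0.94), and KCTD15 of -3.30 and -3.41. AXL fell in 1205Lu-R and rose in 451Lu-R, where its DMSO libraries had 2 and 0 counts. WNT5A and SLC5A3 also fell here and rose there, by log2 0.87 and 0.65, and MITF rose here and fell there, by 1.37.

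**Figure D5:**
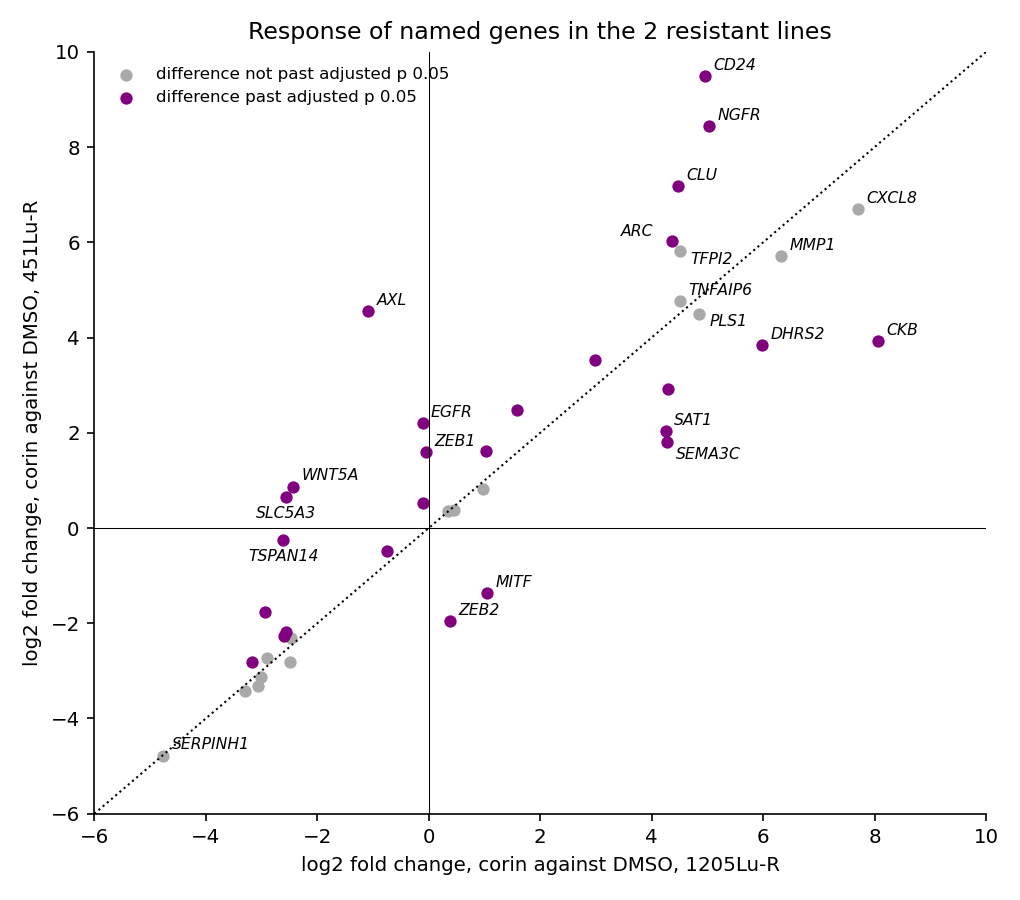
Log2 fold change of corin against DMSO in 1205Lu-R (horizontal axis) and in 451Lu-R (vertical axis) for the 41 named genes tested in both lines, in purple where the difference between the lines passed an adjusted p of 0.05, with a dotted line of equal change. SERPINH1 lies on the line, CKB, DHRS2, SAT1 and SEMA3C lie to its right, and AXL, WNT5A, SLC5A3, MITF and ZEB2 lie in quadrants of opposite direction.

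Some values are shared between genes. Over 10% of the exonic bases of 25 genes chosen by the fixed rule overlap another gene. These include NGFR (22.3%), SQSTM1, CCNE2 (37.0%), NID2 (30.7%), FOXM1, PKMYT1, HDAC5, BAD, BCL2L2, BCL2L11, ICAM1, TPM1, CCN2, ATF5, WIPI1, NDUFS3, NDUFA9, TUBB4A, TEAD2, NR4A1, WDR74, CDK2, RPS2 and CD68. Reads in an overlap on opposite strands cannot be told apart if strand was not used in counting. The sources do not state whether it was. For CD68, BCL2L2, NDUFS3, NDUFA9 and RPS2 the other gene lies on the same strand, so strand would not separate these reads.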

How the data were processed

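Per the labels and the study's methods, reads were trimmed (Trimmomatic) and assigned to GENCODE 32 transcripts (Salmon), and the authors deposited expected counts (estimated counts) per gene, without normalization. Tool versions are not given in the sources used here. Deposited tables of the authors' own fold changes and adjusted p-values for PLX4032 with corin were not used. Counts were rounded and tested with edgeR 4.0.16 in R 4.3.3 (filterByExpr, TMM, glmQLFit, glmQLFTest, 2-sided, Benjamini-Hochberg over all genes tested) on the 4 libraries, 2 per group, after a check on simulated data. An interaction term on 8 libraries compared 1205Lu-R with 451Lu-R. Of 34228 genes, 34052 were matched by identifier to GENCODE 44 for names and overlaps. DMSO and corin libraries sharing a replicate number deviated independently (r = 0.022), so the numbers were not taken as pairs. Sequences come from RefSeq tables on GRCh38.p14.

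Members and the 34 lists were chosen with earlier results of these data known. Named genes were the 15 largest rises and 15 largest falls among well-expressed protein-coding genes, the 5 largest gains and 5 losses of CPM, up to 4 called members per list (mean of 10 CPM or more) or, with none called, the 2 most abundant, 17 genes of cell state and drug target, the 3 most abundant genes at the floor in DMSO, and promoters of the largest changes. Some genes that this rule chose are not reported here. The floor is 3 counts per library, and intervals cover counting error only. Alternatives were DESeq2 1.42.0, 2 scalings, 2 filters, a replicate block, 8 libraries in one fit, other thresholds, each library left out and, added after seeing the data, the level taken from DMSO or from both groups.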

Additional observations from a re-analysis of the deposited data

Results flagged for a closer look

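Groups of 2 libraries are too small for a test of single libraries that stand apart. The results given here are the 27 of 43 named genes whose response to corin differed between 1205Lu-R and 451Lu-R (edgeR's interaction term, adjusted p under 0.05, beside 49.7% of all genes tested). Each value is the log2 fold change in 1205Lu-R minus that in 451Lu-R, and every gene rests on 2 libraries per group.

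The 2 lines moved in opposite directions, each past an adjusted p of 0.05 in its own test, for AXL (-5.68), WNT5A (-3.34), SLC5A3 (-3.24), MITF (2.38) and ZEB2 (2.29), and also for EGFR (-2.35), whose fall of 0.11 in 1205Lu-R was small. AXL had 2 and 0 counts in the DMSO libraries of 451Lu-R, so the size of its difference is uncertain. ZEB1 (-1.67) and HDAC1 (-0.67) rose in 451Lu-R and did not pass the test in 1205Lu-R. IGF2BP1 (-3.04) had 5 to 9 counts in each library of 451Lu-R and was not tested there.

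Rises were larger in 1205Lu-R for CKB (4.09), SEMA3C (2.44), SAT1 (2.18), DHRS2 (2.10) and VGF (1.34). CKB read 170 and 131 counts in the DMSO libraries of 451Lu-R, where its log2 rise was 3.92. In the DMSO libraries of 1205Lu-R it had 6 and 4 counts, so the size of its difference is uncertain. Rises were smaller in 1205Lu-R for CD24 (-4.57), NGFR (-3.45), CLU (-2.75), ARC (-1.70), DUSP5 (-0.93), CDH2 (-0.63) and DUSP1 (-0.59). CD24, CLU and ARC had 7 counts or fewer in each DMSO library of 451Lu-R, which leaves the size of their rise there, and so of the difference, uncertain.

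Falls were larger in 1205Lu-R for TSPAN14 (-2.40), MCM5 (-1.20), PHF19 (-0.42), MOK (-0.39), TNS3 (-0.38) and REST (-0.30). TSPAN14 had a log2 fold change of -0.26 in the other line, and MCM5 of -1.76.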

How the results depend on the processing

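The counts of genes called higher (3211), lower (1427), well expressed and higher (255) or lower (472), and differing from 451Lu-R (7985) stayed within 1.5 times under DESeq2, the other scalings and filters, and 8 libraries in one fit where run. With a replicate block (same-numbered libraries paired) they were 3203, 1426, 255, 471 and 7731. Without 1 library each they ran from 2955 to 3275, 1467 to 1485, 251 to 256, 471 to 499 and 7269 to 7504. At 4-fold and FDR under 0.001 the first 4 counts were 1650, 208, 74 and 48, and at FDR under 0.05 with no fold limit 5886, 5510, 1285 and 2480. Against a 1.5-fold null (glmTreat) 2396 genes were lower, and 467 well-expressed genes were higher and 1007 lower. Taking a mean of 20 CPM as well expressed gave 667 higher and 817 lower, and 200 CPM gave 54 and 80. Levels chosen after seeing the data were 50 CPM in the DMSO libraries, with 111 higher and 618 lower, and 50 CPM in both groups, with 111 and 271.

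Library-size scaling turned the signs of ZEB1 (0.030) and RPS2 (0.058), neither of which had passed the test. Over 155 named genes and 11 alternatives, 11 values lost the adjusted p of 0.05, in EGFR, ZEB2, CD68 and RPL8, and 7 gained it, in HDAC1 and RPS2. The median changed sign under some alternative in 6 of 34 lists, all with medians within 0.15 of 0 (CoREST, ribosomal proteins, ERK output, glycolysis, BCL2 family and the keratinocyte list with 1 tested gene). Genes with 0 DMSO counts, 230 of those tested, have no measured fold, and putting them at their bound moved the median of only the endothelial list, from 3.70 to 3.54. For these genes the depth limits what can be said to those bounds.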
